A study of Homo sapiens with 15 samples.

Results

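A set of 9 long noncoding RNAs that are either linked to prostate cancer or abundant in most cells was followed in LNCaP cells: NEAT1, MALAT1, PCAT1, PCGEM1, DRAIC, PVT1, GAS5, PCAT14 and PCA3. They were taken by symbol from a table of 17272 genes, in which 7 of the 9 had a row. PCGEM1 and PCAT14 had none under a current or older symbol and were not analysed here. LNCaP, a human line of luminal prostate cancer cells, responds to androgen. After 2 days of starvation in medium with 10% charcoal-stripped serum, all cells received 1 nM R1881, a synthetic androgen. In 10 libraries the androgen was given with DMSO, the solvent, and in 5 libraries with 2 µM enzalutamide, a drug that blocks androgen signalling. Cells were collected 22 h later. There was no group without androgen, so every difference below is between androgen with and androgen without the antagonist. All libraries come from a single cell line.

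Expression of polyadenylated RNA is given as deposited, in CPM, the reads of a gene scaled by library size. The depth on genes was 15830745 to 24316740 reads in the R1881 + DMSO libraries and 21188661 to 25416052 reads in the enzalutamide libraries. The limma test was applied to log2(CPM + 0.5) of the 17046 genes whose mean CPM reached 0.5, and the call threshold was a Benjamini-Hochberg adjusted *p* of 0.05 over all of these genes. For each long noncoding RNA the group labels were also permuted in all 3003 possible ways, a two-sided exact permutation test that cannot give a *p* below 0.000333. The R1881 + DMSO libraries carry the numbers 51 to 55 and 71 to 75 and the enzalutamide libraries 81 to 85. What these numbers stand for is not given, so any effect of a numbered series and that of the drug cannot be told apart.

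Long noncoding RNAs are transcripts that are not translated into a known protein, and many act in the nucleus. NEAT1 is the scaffold of paraspeckles, which are nuclear bodies that hold RNA-binding proteins, and MALAT1 gathers in the neighbouring nuclear speckles, which are rich in splicing factors. PCA3, PCAT1, PCGEM1, PCAT14 and DRAIC were named from work on prostate cancer, and PCA3 is measured in urine as a diagnostic marker. PVT1 lies next to the MYC oncogene. GAS5 carries small nucleolar RNAs (snoRNAs) in its introns, and its spliced RNA is a substrate of nonsense-mediated decay.

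How these RNAs end bears on what a poly(A) library captures. MALAT1 (chr11:65497738-65506516, plus strand, RefSeq on GRCh38.p14) and the long NEAT1 transcript (NEAT1, chr11:65422798-65445540, plus strand) are cut at their 3′ end by RNase P. They then end in a genome-encoded A-rich tract that pairs with upstream U-rich stretches, in place of a conventional poly(A) tail. The short NEAT1 transcript is cleaved and polyadenylated in the usual way. The 3 ends are shown because the reads cannot tell the NEAT1 forms apart in a table of 1 value per gene. Capitals mark the longest stretch that the MALAT1 and long NEAT1 ends shared upstream of the end (16 bases), the 11 bases that both ends shared, and the AATAAA hexamer of the short form. Sequences were read 5′ to 3′ from GRCh38.
MALAT1, chr11:65506038-65506116, plus strand: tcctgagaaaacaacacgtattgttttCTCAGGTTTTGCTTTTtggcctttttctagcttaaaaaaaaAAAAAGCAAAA
NEAT1 long form, chr11:65445461-65445540, plus strand: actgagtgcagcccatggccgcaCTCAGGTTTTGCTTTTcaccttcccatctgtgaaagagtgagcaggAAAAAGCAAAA
NEAT1 short form, chr11:65426434-65426513, plus strand: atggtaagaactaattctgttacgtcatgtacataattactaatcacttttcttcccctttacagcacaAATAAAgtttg

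With enzalutamide, 6 of the 7 long noncoding RNAs were higher and PCA3 was lower, and all 7 passed the limma threshold. The groups did not overlap for any of the 7. Calls were common in these data. Of all genes tested, 29.8% were called higher and 32.7% lower, or 62.5% in all, and 17.1% were higher and 20.1% lower with no overlap between the groups. Among the 646 tested rows that matched an annotated long noncoding RNA, 46.1% were called higher and 17.0% lower, or 63.2% in all. A call by itself therefore separates these RNAs little from other genes. The sizes spread more widely. DRAIC changed at least 2-fold upward, as 3.26% of all tested genes did, and PCA3 at least 2-fold downward, as 4.19% did. Of the rows matched to long noncoding RNAs, 6.19% rose and 3.41% fell by that much. The median log2 fold change of the 7 was 0.46, against 0.18 for the rows matched to long noncoding RNAs and -0.01 for all tested genes.

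**Figure D1:**
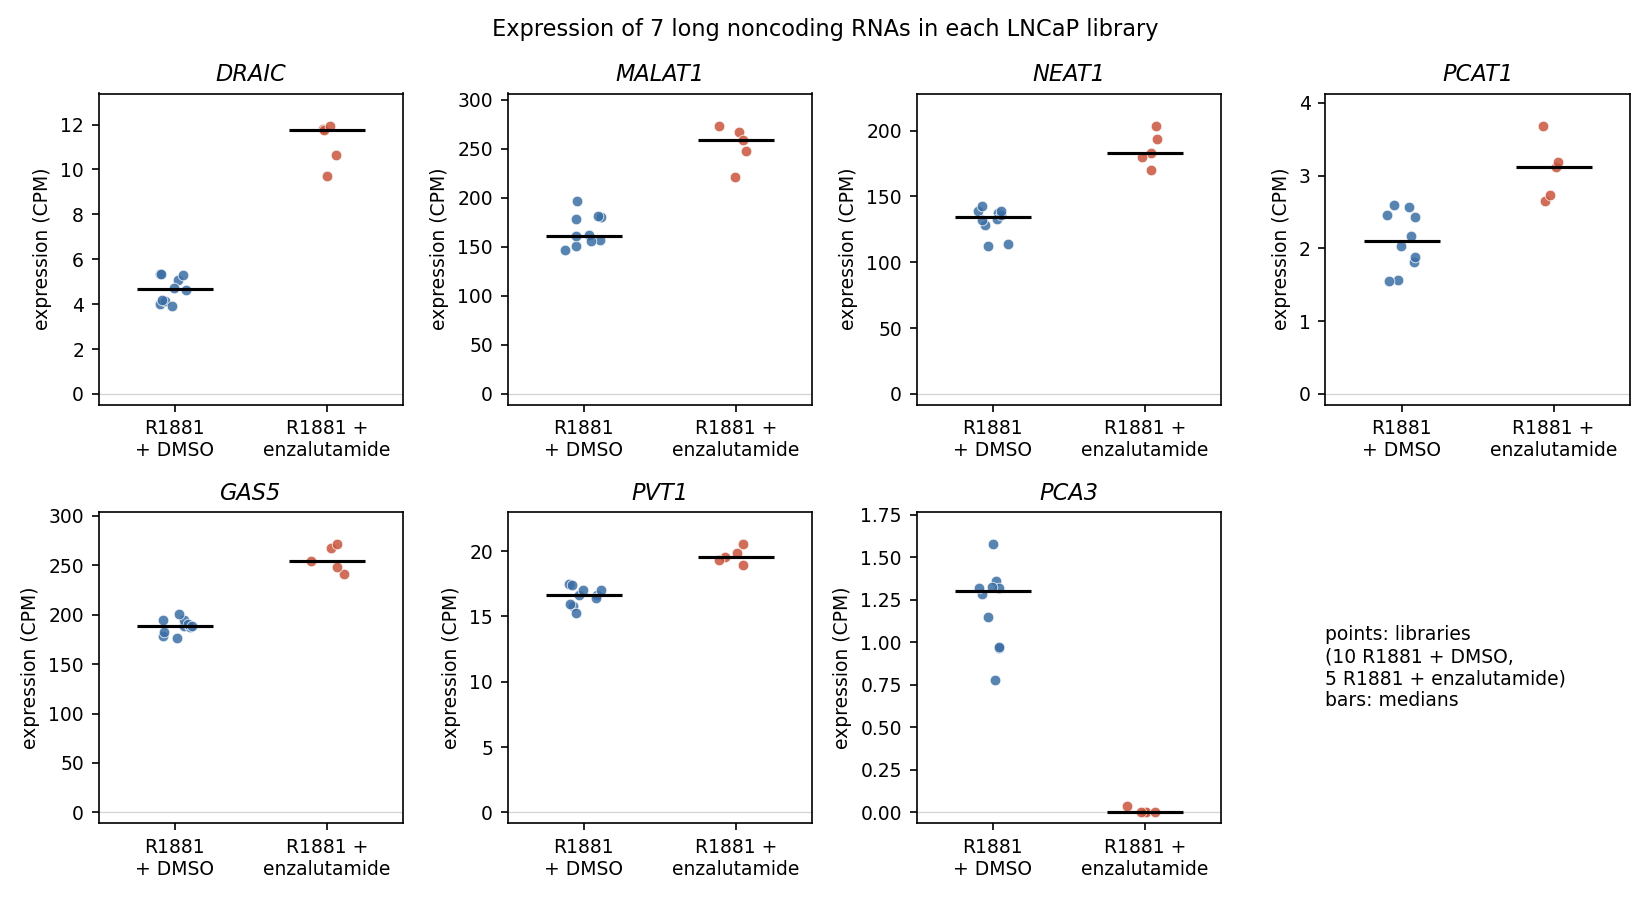
Expression in CPM (linear axes, a separate scale for each panel) of the 7 long noncoding RNAs in each library, with R1881 + DMSO (blue, 10 libraries) and R1881 + enzalutamide (red, 5 libraries), and bars at the medians. In every panel the groups are apart, with PCA3 near 0 under enzalutamide and the other 6 higher.

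PCA3, the urine marker, was downregulated almost to the point of no reads. It lies at chr9:76764436-76787569 on the plus strand, in intron 6 of PRUNE2, which is transcribed from the opposite strand. With R1881 + DMSO its level was 0.779 CPM at the lowest, 1.30 at the median and 1.58 at the highest, from 13 to 35 reads per library. With enzalutamide it was 0 CPM in replicates 1 to 4 and 0.0392 CPM in replicate 5, where a single read was counted. All 10 R1881 + DMSO libraries were therefore above all 5 enzalutamide libraries. In all, 246 reads of 215314708 were counted with R1881 + DMSO and 1 read of 112504443 with enzalutamide. Scaled by the library sizes behind the CPM values and not by these read totals, the ratio of enzalutamide to R1881 + DMSO was 0.00729. Its exact Clopper-Pearson 95% interval of 0.000184 to 0.0410 covers counting error only. In the 4 libraries without a read, a count of 0 allowed a level of up to 0.135 to 0.140 CPM (3 reads), which is below the lowest R1881 + DMSO value. The fitted log2 fold change on log2(CPM + 0.5) was -1.73 (SE 0.11, 95% interval -1.97 to -1.5, limma adjusted *p* = 1.63e-11, exact permutation *p* = 0.000333). That scale understates the change of a gene with so few reads.

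PRUNE2, the gene around PCA3, encodes a protein with a lipid-binding BCH domain and moved the other way. Its level ranged from 678 to 855 CPM with R1881 + DMSO (median 785). With enzalutamide it was 1155, 1045, 978, 1160 and 1118 CPM in replicates 1 to 5, with no overlap between the groups. The log2 fold change was 0.48 (SE 0.05, limma adjusted *p* = 5.91e-08). The library kit marks the strand, but the sources used here do not say whether the authors counted by strand. For a pair on opposite strands this limits both values.

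DRAIC, named for its lower level in advanced prostate cancer and described as an inhibitor of invasion and migration, showed the largest increase of the 7. It lies at chr15:69561720-69571440 on the plus strand. Its level with R1881 + DMSO was 3.92 CPM at the lowest, 4.67 at the median and 5.35 at the highest. Enzalutamide replicates 1 to 5 were at 11.8, 9.72, 11.7, 11.95 and 10.7 CPM. The lowest enzalutamide library stood well above the highest R1881 + DMSO library. The median rose by 151%, and the log2 fold change was 1.18 (SE 0.08, 95% interval 1.00 to 1.36, limma adjusted *p* = 1.11e-10, exact permutation *p* = 0.000333). Reads per library were 61 to 120 and 209 to 272.

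TLE3, a corepressor of the Groucho family, was the only gene listed as a neighbour of DRAIC, and any closer genes were not examined. TLE3 lies 476 kb from DRAIC on the opposite strand and rose by a like amount. Its level was 56.8 to 73.8 CPM with R1881 + DMSO and 138, 147, 136, 140 and 144 CPM in enzalutamide replicates 1 to 5. The log2 fold change was 1.16 (SE 0.05, limma adjusted *p* = 2.53e-14). The difference between the DRAIC and TLE3 changes was not tested.

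The promoters of PCA3 and DRAIC are shown because these were the 2 members with a change of at least 2-fold, in opposite directions. Each runs from 250 bases before to 50 bases after the start of the RefSeq transcript (GRCh38.p14). The androgen response element is a palindrome of the half-site AGAACA and its reverse complement TGTTCT with 3 bases between them. Neither half-site was in either window on either strand. Among 35116 RefSeq promoters of that length, 14.8% held AGAACA or TGTTCT and 1 held the palindrome. These letters being missing from a short window says nothing about other sites. Of the other members, GAS5 had no half-site, and MALAT1 had 1, TGTTCT at position -41 of the second of its 2 RefSeq starts. PCGEM1, which had no expression value, had 1, TGTTCT at position -191. The promoters of the remaining members were not searched here.
PCA3, chr9:76764186-76764485, plus strand: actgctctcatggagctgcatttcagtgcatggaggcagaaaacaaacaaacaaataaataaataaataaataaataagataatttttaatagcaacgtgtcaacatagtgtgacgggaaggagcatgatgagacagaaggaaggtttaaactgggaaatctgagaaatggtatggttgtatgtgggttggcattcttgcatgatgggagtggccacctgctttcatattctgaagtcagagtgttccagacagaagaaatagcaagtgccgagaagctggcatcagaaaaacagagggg
DRAIC, chr15:69561470-69561769, plus strand: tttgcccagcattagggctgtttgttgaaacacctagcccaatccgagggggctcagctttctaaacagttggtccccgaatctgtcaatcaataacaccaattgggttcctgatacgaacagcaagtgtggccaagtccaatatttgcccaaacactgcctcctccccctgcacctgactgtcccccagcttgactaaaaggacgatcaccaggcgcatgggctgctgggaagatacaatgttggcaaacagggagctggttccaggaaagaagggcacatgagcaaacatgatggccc

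MALAT1 and NEAT1, neighbours 52.2 kb apart on the same strand of chromosome 11, both rose. MALAT1, which takes part in the control of splicing and gene expression at nuclear speckles, was at 147 CPM at the lowest, 161 at the median and 197 at the highest with R1881 + DMSO. The 5 enzalutamide libraries, in the order of their replicate numbers, were at 267, 222, 248, 274 and 259 CPM. No enzalutamide library fell within the R1881 + DMSO range, and the median rose by 60.7%. The log2 fold change was 0.60 (SE 0.06, 95% interval 0.47 to 0.73, limma adjusted *p* = 3.99e-08, exact permutation *p* = 0.000333).

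NEAT1, the paraspeckle scaffold, was at 112 CPM at the lowest, 134 at the median and 143 at the highest with R1881 + DMSO. With enzalutamide it was at 194, 170, 183, 204 and 180 CPM in replicates 1 to 5. Again the groups were apart, and the median rose by 36.2%. The log2 fold change was 0.50 (SE 0.06, 95% interval 0.39 to 0.62, limma adjusted *p* = 1.01e-07, exact permutation *p* = 0.000333). Both values cover only the RNA that poly(A) selection retained, and the short and long NEAT1 forms cannot be told apart.

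The ratio of NEAT1 to MALAT1 CPM, which does not depend on library scaling, did not differ past the threshold between the treatments. It was 0.705 to 0.919 with R1881 + DMSO (median 0.765) and 0.695 to 0.768 with enzalutamide (median 0.739). The difference in log2 ratio was -0.10 (exact permutation *p* = 0.184). The 2 series of R1881 + DMSO libraries differed from each other in this ratio. Libraries 51 to 55 had ratios of 0.705 to 0.730 and libraries 71 to 75 ratios of 0.801 to 0.919, with no overlap. Against libraries 51 to 55 alone the difference was 0.03 (exact permutation *p* = 0.238), and against libraries 71 to 75 alone it was -0.23 (exact permutation *p* = 0.00794). With so few libraries, the last *p* is the lowest that this two-sided permutation test can give. The direction of this ratio thus depended on the R1881 + DMSO series used. The rise of each RNA did not: NEAT1 was at 112 to 139 CPM in libraries 51 to 55 and 133 to 143 CPM in libraries 71 to 75, and MALAT1 at 156 to 197 and 147 to 179 CPM, all below the lowest enzalutamide library.

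**Figure D2:**
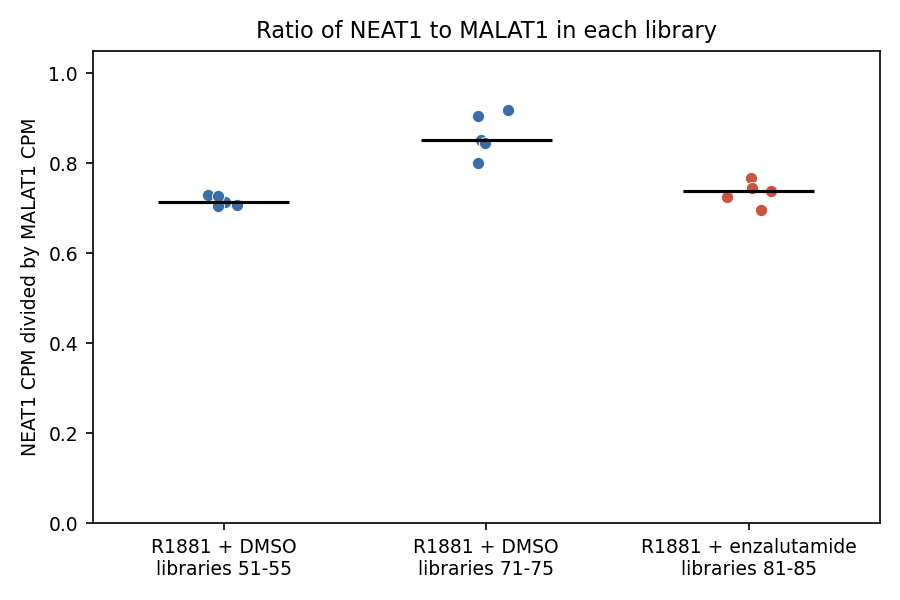
Ratio of NEAT1 CPM to MALAT1 CPM (vertical axis, from 0) in each library of the 3 numbered series, with bars at the medians. Libraries 51 to 55 (median 0.713) and the enzalutamide libraries (median 0.739) lie close together, and libraries 71 to 75 (median 0.851) lie above both.

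Protein-coding genes around NEAT1 and MALAT1 did not share one direction. LTBP3, which encodes a latent TGF-beta binding protein 32 kb from MALAT1, rose with a log2 fold change of 0.49 (limma adjusted *p* = 0.000326). FRMD8, 9.27 kb from NEAT1, fell by 0.18 on the log2 scale (limma adjusted *p* = 0.0409). The genes SLC25A45 and EHBP1L1 had log2 fold changes of 0.02 and 0.10 and did not pass the threshold.

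The proteins that work with these RNAs were described from 2 lists. Of 37 listed paraspeckle proteins 35 were tested, of which 9 were higher, 14 were lower and 12 were not called (median log2 fold change -0.07, all genes -0.01). The shares of all tested genes were 29.8% higher and 32.7% lower, and neither list was tested against them. The core paraspeckle protein NONO rose by 0.17 on the log2 scale (limma adjusted *p* = 8.44e-05), while SFPQ, also a core protein, had a value of 0.03 (adjusted *p* = 0.537) and PSPC1 one of -0.12 (adjusted *p* = 0.0814). These 3 were named after their values were seen. The largest increases among members at a mean CPM of at least 1 were those of the zinc-finger gene ZC3H6 (1.14), of RBM7, a subunit of the nuclear exosome targeting complex (0.60), and of the cold-inducible CIRBP (0.26). The largest decreases were those of TAF15 (-0.60), of the FET family, RBM12 (-0.56) and the cleavage factor CPSF7 (-0.53). Of the 20 nuclear speckle proteins 4 were higher, 12 lower and 4 not called (median -0.11). BCLAF1 (0.26), the splicing kinase CLK1 (0.23) and PRPF6 (0.21) rose, and THRAP3 (-0.57), the export factor ALYREF (-0.46) and the splicing factor SRSF2 (-0.30) fell. With library totals set to 1000000, 14 paraspeckle proteins were called higher and 8 lower, and 7 speckle proteins lower, so these counts depended on the scaling. The 2 RNAs rose under every scaling tried.

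GAS5, a host gene of snoRNAs that is also linked to growth arrest, lies at chr1:173863901-173869045 on the minus strand. RefSeq placed 11 snoRNAs within it, among them SNORD44, SNORD47 and SNORD81. They lack a poly(A) tail and were not analysed here, so the values are those of the spliced host RNA. GAS5 was at 176 CPM at the lowest, 189 at the median and 201 at the highest with R1881 + DMSO. In enzalutamide replicates 1 to 5 the level was 268, 241, 271, 248 and 254 CPM. The groups were clearly apart, the spread within each was small (coefficients of variation of 4.05% and 4.98%), and the median rose by 34.5%. The log2 fold change was 0.45 (SE 0.04, 95% interval 0.37 to 0.52, limma adjusted *p* = 8.34e-10, exact permutation *p* = 0.000333). ZBTB37, which overlaps GAS5 on the opposite strand, had a log2 fold change of -0.10 (adjusted *p* = 0.162). RC3H1, 62 kb away, had a value of -0.03 (adjusted *p* = 0.647).

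Other snoRNA hosts moved both ways. Of the 23 tested, 8 were higher (34.8%), 6 lower (26.1%) and 9 not called, with a median log2 fold change of 0.06. Among all tested genes 29.8% were higher and 32.7% lower, so these counts separate the class little from other genes. SNHG3 rose from a median of 59.4 to 89.5 CPM (log2 fold change 0.62, limma adjusted *p* = 3.24e-12). SNHG32, listed as C6orf48 (0.47), and DANCR (0.37) also rose. SNHG17 (-0.31), SNHG15 (-0.27) and SNHG14 (-0.24) fell. GAS5 thus lay within the range of its class, below SNHG3 and close to SNHG32. Of 7 factors of nonsense-mediated decay, the pathway that degrades spliced GAS5, 3 were higher (42.9%), 2 lower (28.6%) and 2 not called. UPF2 (0.28) and UPF3B (0.15) were among those that rose, and SMG5 (-0.51) and the helicase UPF1 (-0.27) fell. With library totals set to 1000000 these counts were 5 higher and 1 lower.

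PVT1 and PCAT1 lie on either side of the MYC oncogene on chromosome 8, on the same strand as MYC. PVT1 (chr8:127794524-128101256) starts 51.6 kb from MYC and holds 4 microRNAs, MIR1204 to MIR1207. Its level was 15.3 CPM at the lowest, 16.7 at the median and 17.5 at the highest with R1881 + DMSO. Levels of 20.5, 19.6, 19.8, 18.9 and 19.3 CPM were found in enzalutamide replicates 1 to 5. Although the groups did not overlap, this was the smallest change of the 7, with a median 17.6% higher. The log2 fold change was 0.24 (SE 0.05, 95% interval 0.14 to 0.34, limma adjusted *p* = 0.000121, exact permutation *p* = 0.000333).

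PCAT1 (chr8:127013154-127021014), a prostate cancer associated transcript 714 kb from MYC, was measured with few reads. Its level was 1.56 CPM at the lowest, 2.10 at the median and 2.60 at the highest with R1881 + DMSO, from 25 to 59 reads. With enzalutamide it was 2.65, 3.12, 2.73, 3.19 and 3.69 CPM in replicates 1 to 5, from 57 to 94 reads. The lowest enzalutamide library was only just above the highest R1881 + DMSO library, and the adjusted *p* of PCAT1 was the highest of the 7. The median rose by 48.3%, and the log2 fold change was 0.46 (SE 0.11, 95% interval 0.23 to 0.70, limma adjusted *p* = 0.0013, exact permutation *p* = 0.00133). MYC itself was at 94.6 to 127 CPM with R1881 + DMSO and 131 to 152 CPM with enzalutamide (log2 fold change 0.36, limma adjusted *p* = 4.53e-05). POU5F1B, a retrogene between PCAT1 and MYC, had a value of 0.17 (adjusted *p* = 0.251).

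Over the whole list of neighbours 16 of 22 genes were tested, and 6 were higher, 4 lower and 6 not called (median log2 fold change 0.09). Calls over all tested genes were 29.8% higher and 32.7% lower, or 62.5% in all. These counts therefore separate the neighbours little from other genes. For the RNAs without a row, only listed genes on the same chromosome can be given, and any closer genes that were not listed were not examined. On the chromosome of PCGEM1, TMEFF2 (555 kb away) fell by 1.36 on the log2 scale. The zinc transporter gene SLC39A10, far off at 2836 kb, fell by 1.5. Near PCAT14, RAB36 (369 kb away) rose by 0.31, and BCR (220 kb away) had a value of 0.09 (adjusted *p* = 0.304).

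**Figure D3:**
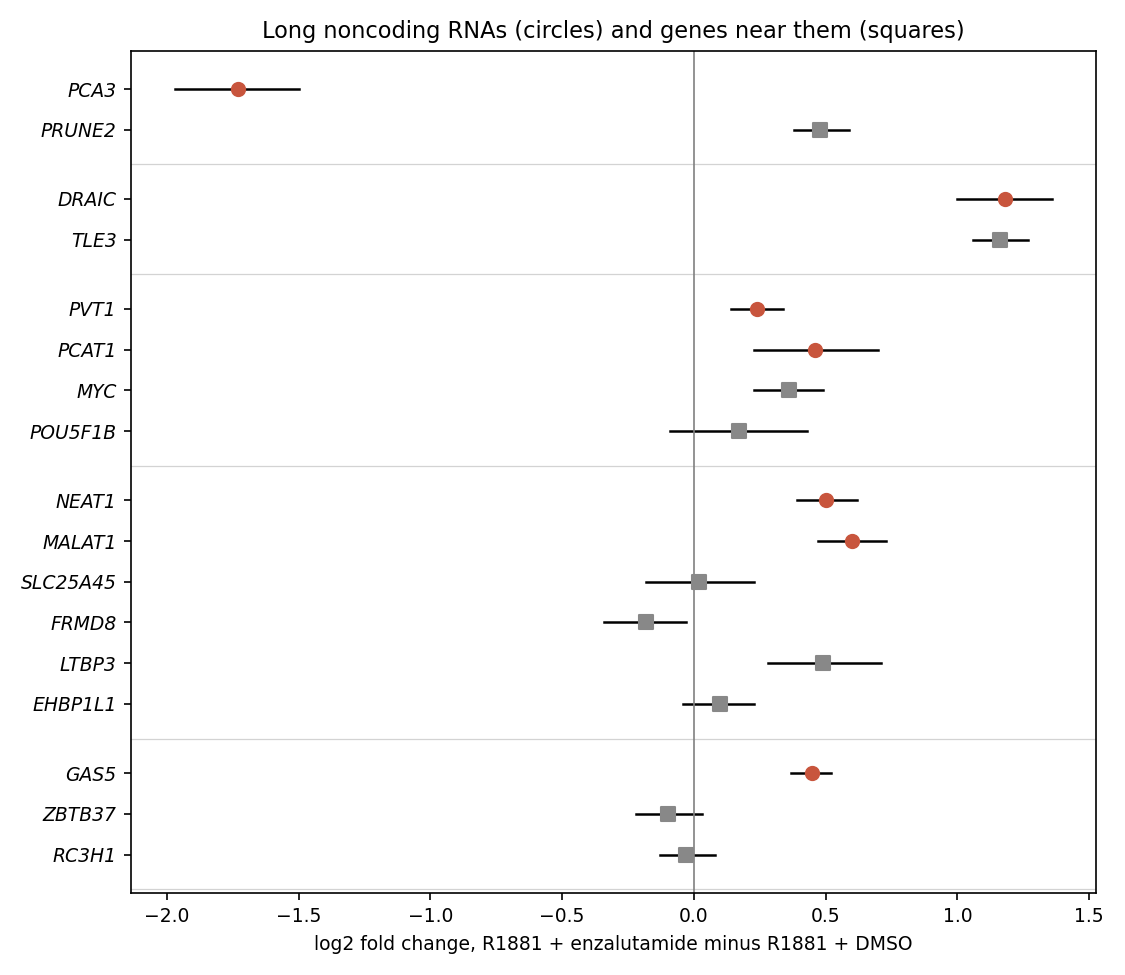
Log2 fold change (horizontal axis, R1881 + enzalutamide minus R1881 + DMSO, on log2(CPM + 0.5)) with its 95% interval for the long noncoding RNAs (circles) and genes near them (squares), grouped by locus. PCA3 and PRUNE2 lie on opposite sides of 0, DRAIC and TLE3 at 1.18 and 1.16, and the genes around NEAT1 and MALAT1 on both sides.

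On the log2 scale, the interval of DRAIC lay above those of the others. The intervals of MALAT1, NEAT1, PCAT1 and GAS5 overlapped each other, and that of PVT1 overlapped that of PCAT1 but not those of MALAT1, NEAT1 and GAS5. PCA3 was the only one below 0. Differences between these changes were not tested. Replicate 2 was the lowest enzalutamide library for NEAT1, MALAT1, DRAIC and GAS5, and each of them was called without it.

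**Figure D4:**
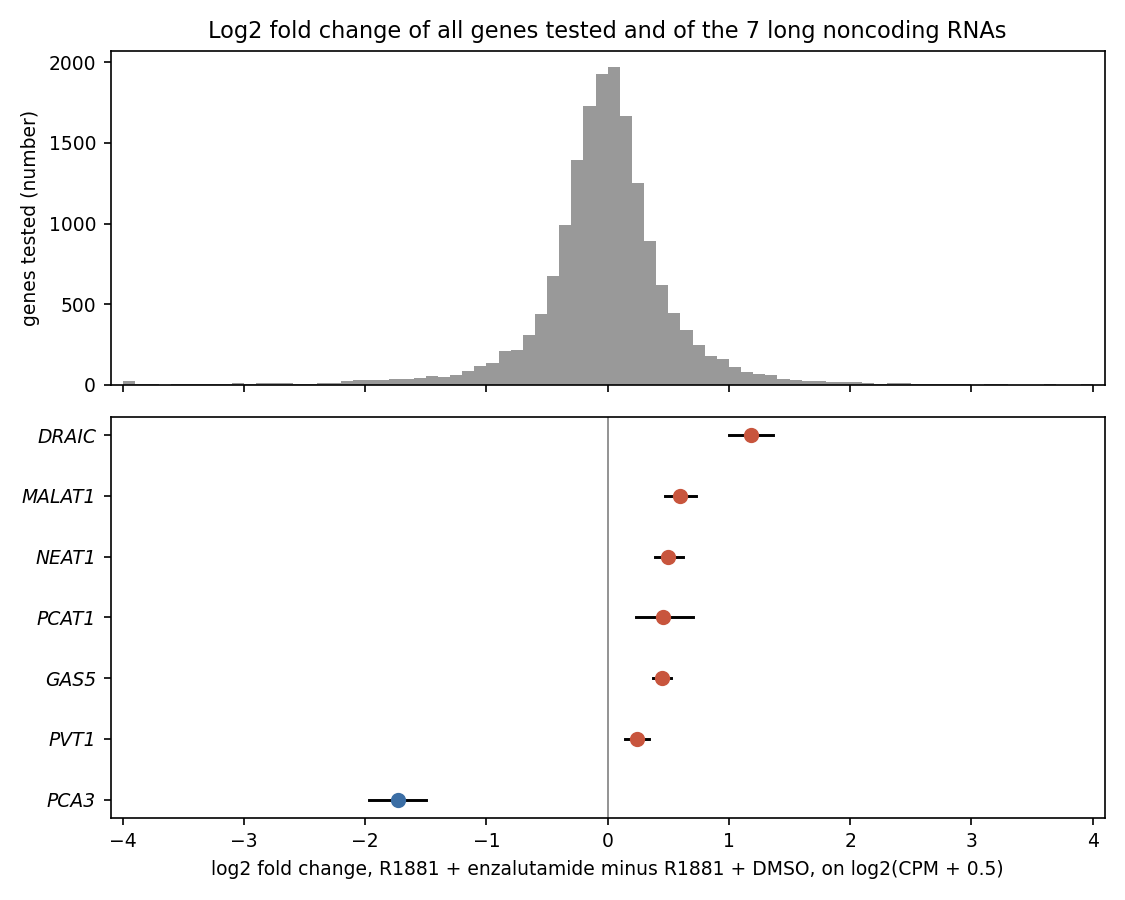
Upper part: number of tested genes by log2 fold change (bins of 0.1, with genes beyond the ends placed in the outermost bins). Lower part: log2 fold change and 95% interval of the 7 long noncoding RNAs on the same axis. The other 6 lie above 0, from 0.24 for PVT1 to 1.18 for DRAIC, and PCA3 lies at -1.73.

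Levels were compared between these RNAs only per length, as CPM per kb of annotated exonic sequence. With R1881 + DMSO the medians were 38.3 for GAS5, 15.5 for MALAT1, 5.90 for NEAT1, 0.655 for PVT1, 0.149 for DRAIC, 0.114 for PCAT1 and 0.0917 for PCA3. The ranges of DRAIC and PCAT1, and of PCAT1 and PCA3, overlapped in this group. With enzalutamide the order by this length was the same and no neighbours overlapped. The lengths are uncertain, since gene models of DRAIC, PCAT1 and PVT1 take in many long transcripts. For NEAT1 both lengths used are those of the long form (22.77 kb exonic, 22.74 kb canonical). Its other annotated transcripts, among them the polyadenylated short form, are at most 3.52 kb. Per kb of a short form NEAT1 would stand higher, so its rank is not settled by either length. With the length of the canonical transcript instead, GAS5 and MALAT1 were still first and second and PCA3 last, but the order between them changed. With R1881 + DMSO, PVT1 (6.82) then ranked above NEAT1 (5.91) and PCAT1 (2.32) above DRAIC (2.13), each pair with overlapping ranges. With enzalutamide, NEAT1 (8.05) and PVT1 (8.01) overlapped, and DRAIC (5.36) was above PCAT1 (3.44).

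Some genes had profiles close to those of the long noncoding RNAs over the 15 libraries, by the root mean square difference of their centred log2(CPM + 0.5) values among the 12164 genes whose mean CPM was 5 or more. This measure mostly follows the treatment difference. For NEAT1 the closest were EIF4A2, an RNA helicase of translation initiation (0.0646), RBM7 (0.0742) and INTS8 (0.0783). RBM7 is also on the paraspeckle list. For MALAT1 they were ZNF493 (0.0730), MTERF2 (0.0745) and RMDN1 (0.0784). For GAS5 they were EIF1B (0.0375), the snoRNA host SNHG32 (C6orf48, 0.0386) and APPL2 (0.0460). For PVT1 they were LPCAT3 (0.0425), the histone deacetylase HDAC1 (0.0459) and CRTAP (0.0463). The 3 RNAs with fewer reads had looser matches. DRAIC was closest to F8 (0.109), MYNN (0.113) and MTURN (0.116), and PCAT1 to HTR7P1, BTN3A2 and PANK1 (0.147 to 0.149). For PCA3, which had no reads in 4 enzalutamide libraries, the pseudocount of 0.5 sets the size of the profile. Its closest genes, CREB3L4 (0.144), ERN1 (0.152) and HGD (0.152), are therefore close on this scale only.

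A pair of lists of other long noncoding RNAs give the setting. Of 32 others linked to prostate cancer 15 were tested, with a median log2 fold change of -0.21. Of these, 5 (33.3%) were higher, 8 (53.3%) lower and 2 not called. The shares higher and lower were 29.8% and 32.7% of all tested genes, and 46.1% and 17.0% of rows matched to long noncoding RNAs. LINC00844 fell from a median of 5.20 to 0.0930 CPM (log2 fold change -3.24, limma adjusted *p* = 8.52e-19), SOCS2-AS1 from 4.74 to 0.314 CPM (-2.57) and ARLNC1, listed as PRCAT47, from 2.37 to 0.275 CPM (-1.92). These 3 RNAs have been described as androgen-induced. HOXA11-AS rose from 0.445 to 4.16 CPM (2.25), CRNDE from 10.98 to 19.2 CPM (0.71) and PCAT7 from 2.69 to 3.18 CPM (0.23). The antisense RNAs carry the same doubt on strand as PCA3. The count of higher RNAs on this list fell to 3 without enzalutamide replicate 2 and also without replicate 5.

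Of 17 other widely expressed long noncoding RNAs tested, 5 were higher (29.4%), 4 lower (23.5%) and 8 not called (median log2 fold change -0.08). Among all tested genes these shares were 29.8% and 32.7%, and among rows matched to long noncoding RNAs 46.1% and 17.0%. HCP5 (1.19), TMEM161B-DT, listed as TMEM161B-AS1 (0.68), and the imprinted antisense RNA KCNQ1OT1 (0.41) rose. The microRNA host MIR22HG (-1.28), LINC-PINT (-0.80) and OIP5-AS1 (-0.18) fell. NORAD, listed as LINC00657, was at a median of 509 and 500 CPM (log2 fold change -0.03, adjusted *p* = 0.561). This value, chosen after it was seen, contrasts with NEAT1 and MALAT1, although that difference was not tested.

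**Figure D5:**
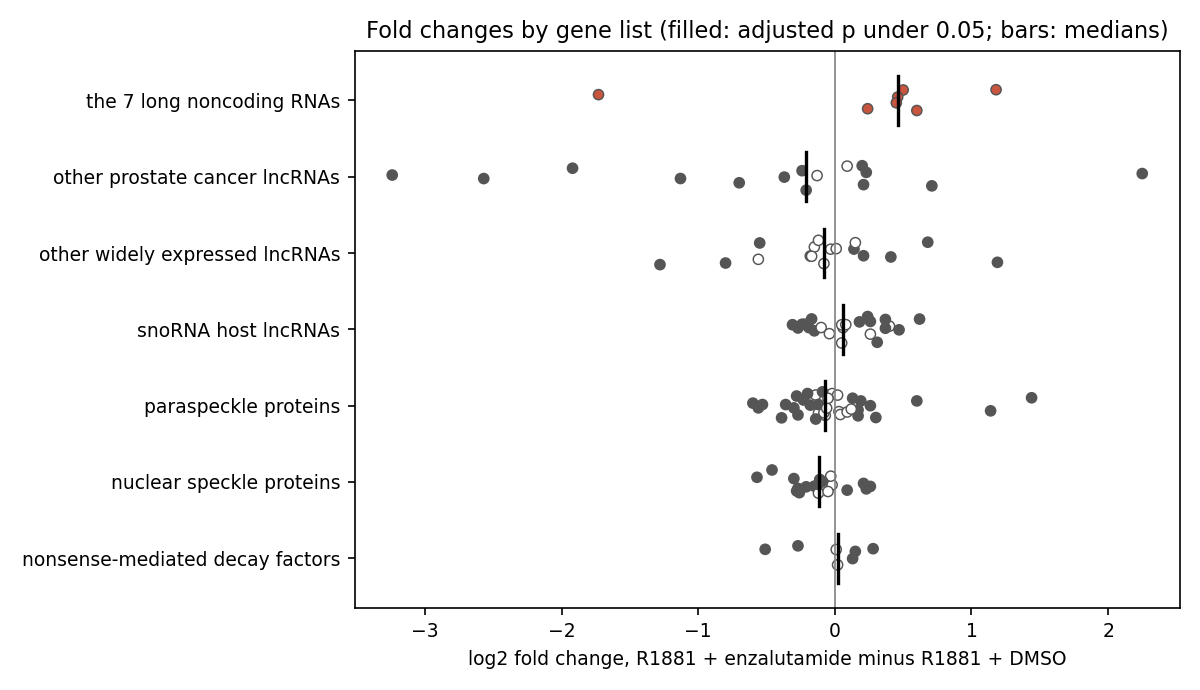
Log2 fold change (horizontal axis, R1881 + enzalutamide minus R1881 + DMSO, on log2(CPM + 0.5)) of the 7 long noncoding RNAs (red) and of the members of 6 gene lists. Each point is a gene, filled where the limma adjusted p was under 0.05, and bars are medians (0.46 for the 7 RNAs, -0.21 to 0.06 for the lists).

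The treatment and the cells were checked on genes outside this group. All 6 androgen-induced control genes fell, among them KLK3, which encodes prostate-specific antigen (-3.55), and FKBP5 (-4.99). Of the 10 luminal prostate markers 4 rose, including FOLH1 (1.04), and 6 fell, and their summed level was 7992 to 9267 CPM with R1881 + DMSO and 3770 to 3888 CPM with enzalutamide. Of 14 markers of other cell types 5 had a row, with a sum of 12.8 to 17.7 CPM and 15.2 to 21.0 CPM. COL1A1 (0.69) and VWF (0.28) rose, SYP (-0.43) and KRT14 (-1.35) fell, and ACTA2 was not called. The part of either marker set in the changes of the long noncoding RNAs was not tested. In these bulk samples fewer cells that express an RNA and less of it per cell cannot be told apart.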

How the data were processed

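The authors prepared stranded poly(A) libraries from RNA with integrity values above 8, sequenced single-end reads of 50 cycles, mapped them to GRCh38 with STAR and counted them with featureCounts. In the sources used here, tool versions, gene annotation, strand setting and scaling rule were not stated. The deposited values are a signal per gene that the study calls CPM. The columns summed to 1053406 to 1078567 with R1881 + DMSO and to 985580 to 1008992 with enzalutamide, so library sizes had been rescaled. These sums did not overlap between the treatments, so small changes depend on the scaling. Divided by the value of 1 read, 100% of values came out whole within 0.01 reads, so read numbers could be recovered. The planned test for CPM was kept.

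Differences were tested with limma 3.58.1 in R 4.3.3 (log2(CPM + 0.5) with a mean-variance trend, genes whose mean CPM was 0.5 or more, treatment as the only term), and edgeR 4.0.16 and DESeq2 1.42.0 were run on recovered reads as alternatives. The script was tested on simulated reads of this comparison with 16725 genes, where it called 100% of the 195 genes given a 2-fold change and 6 of the 16530 left alone. The pseudocount of 0.5 shrinks fold changes of low genes. Other alternatives were the pseudocount, the filter, the scaling, each R1881 + DMSO series alone, a replicate block and each library left out in turn. The canonical transcript length was added after the data were seen.

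The long noncoding RNAs, gene lists and tests were chosen with earlier results of these data known. Named genes were the members, the genes near them, the 3 highest and 3 lowest called genes of each list with a mean CPM of at least 1, and the 3 genes closest in profile to each member. Some genes that this rule names are not reported here. The study's methods give the group sizes the other way round, and the sample labels were followed. Sampling noise was exceeded in each of the 55 pairs of same-treatment libraries (lowest chi-square 1.63 per degree of freedom), and all were kept as separate samples. The study calls the samples biological replicates, but the labels name no separate cultures, so p-values measure the spread between these libraries. The number of libraries limits the precision, as do low read numbers for PCA3, PCAT1 and DRAIC. Gene positions and promoters are from RefSeq (GRCh38.p14), transcript lengths from GENCODE on GRCh38. NEAT1 has no entry in the promoter table.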

Additional observations from a re-analysis of the deposited data

Results flagged for a closer look

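In the R1881 + enzalutamide group, PCA3 was at 0 CPM in replicates 1 to 4 and at 0.0392 CPM in replicate 5, so that 1 library lay apart from the others by the whole range of the group (gap divided by range of 1). The gap is that of 1 read. Of 16 groups of values examined, 1 was set apart in this way, where chance gives 0.8.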

How the results depend on the processing

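Each of the 195 recomputed values of the 7 long noncoding RNAs kept its direction and stayed past the threshold. Leaving out 1 library gave 0.47 to 0.53 for NEAT1, 0.57 to 0.65 for MALAT1, 1.16 to 1.23 for DRAIC, 0.40 to 0.51 for PCAT1 and -1.78 to -1.70 for PCA3. The size for PCA3 depended on the scale, from -1.12 with a pseudocount of 1 to -6.62 with DESeq2, and PCA3 was not tested with a mean CPM of at least 1. The highest adjusted *p* was 0.012, for PCAT1.

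Of all 860 recomputed values 843 were taken as unchanged. For fold changes and the ratio this meant the same direction and call, whatever the size, and for counts a like size. With library totals of 1000000, 60.7% of calls were higher rather than 47.7% (median of all genes 0.075), with 14 paraspeckle proteins higher and 8 lower, 7 nuclear speckle proteins lower, and 5 decay factors higher and 1 lower. With R1881 + DMSO libraries 51 to 55 only, 3 widely expressed long noncoding RNAs and 1 decay factor were higher and 1 decay factor lower, and the NEAT1 to MALAT1 difference turned to 0.03. With libraries 71 to 75 only, 2 nuclear speckle proteins were higher and that difference was -0.23. A mean CPM of at least 1 left 1 marker of other cell types lower, since KRT14 fell below that mean. A 2-fold rule left 1270 genes and 2 of the members called. Leaving out 1 library gave 3 to 5 other prostate cancer RNAs higher, 1 to 2 decay factors lower (1 without enzalutamide replicate 1) and a ratio difference of -0.12 to -0.07. The cause of these shifts was not tested.

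A replicate block on the numbers 1 to 5 of the titles gave 10117 called genes against 10660, and a block on the last digit of the library number 10720. No call of a member changed. The numbers do not pair the samples: correlations of same-numbered libraries were -0.07 to 0.07 for the titles, where 0 of 5 enzalutamide libraries correlated best with their own number, and -0.42 to 0.67 for the last digit (2 of 5).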
